A study of Mus musculus with 16 samples.

Results

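In undifferentiated MC3T3-E1 pre-osteoblasts, 51122 regions carried H3K4me1 and 41592 carried H4K5Ac, together 92714 of the 314892 regions and peaks in the 14 deposited lists. The H3K4me1 regions were split by whether they overlapped an H4K5Ac region by at least 1 bp. This gave 38664 acetylated H3K4me1 regions, which hold both marks and are often called active, and 12458 unacetylated H3K4me1 regions, often called primed. The last class was the 6099 H4K5Ac regions that overlapped no H3K4me1 region. The 3 classes were compared by position, width, nearby genes, and by the RUNX2 and C/EBPβ peaks mapped in the same cells.

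H3K4me1, monomethylation of lysine 4 of histone H3, is laid down at enhancers and on the flanks of promoters, and it can be present before an enhancer is used. H4K5Ac, acetylation of lysine 5 of histone H4, is found on active promoters, enhancers and transcribed chromatin. RUNX2 is the runt-domain factor without which osteoblasts do not form. C/EBPβ is a basic leucine zipper factor that works with RUNX2 at several bone genes.

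Sequences of factor peaks are given as single examples, not as typical of their class. The Runx2, 1110007C09Rik and 4930544G11Rik peaks were picked by a rule that required the RUNX motif marked below. The others were added after the values were seen, so the motifs printed here do not describe the classes. All peaks of both factors were 201 bp wide, and each sequence is the plus strand of mm9, read from the NCBIM37 assembly. Capitals mark the RUNX motif TGTGGT, on the opposite strand ACCACA, or the C/EBP motif TTGCNNAA on either strand. The first is a RUNX2 peak in the first class, in an intron of Runx2 itself, at chr17:44814741-44814941.
Runx2 intron, both marks: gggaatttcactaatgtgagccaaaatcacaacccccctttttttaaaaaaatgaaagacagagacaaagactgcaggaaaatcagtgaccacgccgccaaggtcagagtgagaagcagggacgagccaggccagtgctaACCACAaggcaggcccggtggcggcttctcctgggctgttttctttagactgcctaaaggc
The next 2 are RUNX2 peaks in unacetylated H3K4me1 regions. They lie in an intron of 1110007C09Rik at chr13:49301035-49301235 and in an intron of the antiviral gene Oas3 at chr5:121225775-121225975, and each holds the RUNX motif at 2 places. The other RUNX2 peak of that Oas3 region, at chr5:121230118-121230318, does not hold the RUNX motif.
1110007C09Rik intron, H3K4me1 without H4K5Ac: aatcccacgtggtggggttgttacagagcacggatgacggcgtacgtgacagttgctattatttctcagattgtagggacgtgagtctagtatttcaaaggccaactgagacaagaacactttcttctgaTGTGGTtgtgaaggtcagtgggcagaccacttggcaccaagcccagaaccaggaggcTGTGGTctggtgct
Oas3 intron, H3K4me1 without H4K5Ac: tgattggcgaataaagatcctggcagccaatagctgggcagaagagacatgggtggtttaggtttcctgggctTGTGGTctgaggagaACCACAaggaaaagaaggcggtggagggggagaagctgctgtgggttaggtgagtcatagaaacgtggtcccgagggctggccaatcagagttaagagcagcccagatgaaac
A RUNX2 peak in an H4K5Ac region without H3K4me1 lies between genes at chr6:65962717-65962917, 60252 bp from the nearest transcription start site (TSS), that of 4930544G11Rik.
4930544G11Rik side, H4K5Ac without H3K4me1: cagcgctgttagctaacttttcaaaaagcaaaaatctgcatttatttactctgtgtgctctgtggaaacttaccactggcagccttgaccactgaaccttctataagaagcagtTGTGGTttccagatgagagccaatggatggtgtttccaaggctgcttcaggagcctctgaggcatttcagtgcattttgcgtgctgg
A C/EBPβ peak in an unacetylated H3K4me1 region is shown for the collagen VI gene Col6a6, whose own promoter carries H3K4me1 without H4K5Ac. It is assigned to Col6a6 by the nearest TSS, 29785 bp away, lies outside that gene in an intron of its neighbour Col6a5 at chr9:105760100-105760300, and holds 1 C/EBP motif.
C/EBPβ peak near Col6a6, H3K4me1 without H4K5Ac: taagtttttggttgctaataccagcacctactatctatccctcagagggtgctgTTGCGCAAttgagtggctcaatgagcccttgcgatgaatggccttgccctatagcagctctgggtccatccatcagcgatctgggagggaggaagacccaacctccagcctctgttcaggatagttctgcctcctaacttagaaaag
The last is a RUNX2 peak in the promoter of 1190002N15Rik at chr9:94439121-94439321, inside an H4K5Ac stretch that H3K4me1 flanks but does not reach. It holds neither motif.
1190002N15Rik promoter, H4K5Ac next to H3K4me1: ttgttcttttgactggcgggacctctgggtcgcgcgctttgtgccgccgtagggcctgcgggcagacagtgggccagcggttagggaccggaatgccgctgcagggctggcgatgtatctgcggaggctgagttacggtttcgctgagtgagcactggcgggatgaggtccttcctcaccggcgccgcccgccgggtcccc

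MC3T3-E1 is a mouse line established from calvaria, the flat bones of the skull. The cells used here were undifferentiated, at passages 5 to 12 and given ethanol vehicle for 3 h. A later section uses H4K5Ac and H3K4me1 of differentiated cells, cultured for 15 days with ascorbic acid (50 µg/mL) and glycerol-2-phosphate (10 mM) before the same vehicle. Each antibody and state had 1 list, named by the submitters as the overlap of replicates, so no comparison had a replicate check and no p-value was computed. Shares carry exact Clopper-Pearson 95% intervals, and differences between shares carry Newcombe 95% intervals in percentage points. Both cover counting error only, and neighbouring regions are not independent. Read depth is unknown, since peak lists hold no read counts, and a region absent from a list is one not called there. In a bulk culture, a weak mark in all cells and a mark in fewer cells cannot be told apart.

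The acetylated regions were wide and high in the H3K4me1 ranking, whereas the unacetylated ones were narrow and low. Acetylated regions were 75.6% of H3K4me1 regions (interval 75.3 to 76.0), which is the rule that made the class and is given as a description. Their median width was 5401 bp (quartiles 3274 and 9401), against 2180.5 bp (1616 and 3237) for unacetylated regions, a ratio of 2.48. The H4K5Ac regions without H3K4me1, 14.7% of the H4K5Ac list (14.3 to 15.0), were of a similar width to the unacetylated ones, with a median of 2362 bp (1660 and 3856.5). The acetylated regions covered 307.3 Mb or 12.0% of the gap-free genome, against 34.4 Mb for the unacetylated ones and 20.5 Mb for H4K5Ac without H3K4me1. A wider region has more room to overlap another list, so width is not independent of the rule.

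**Figure D1:**
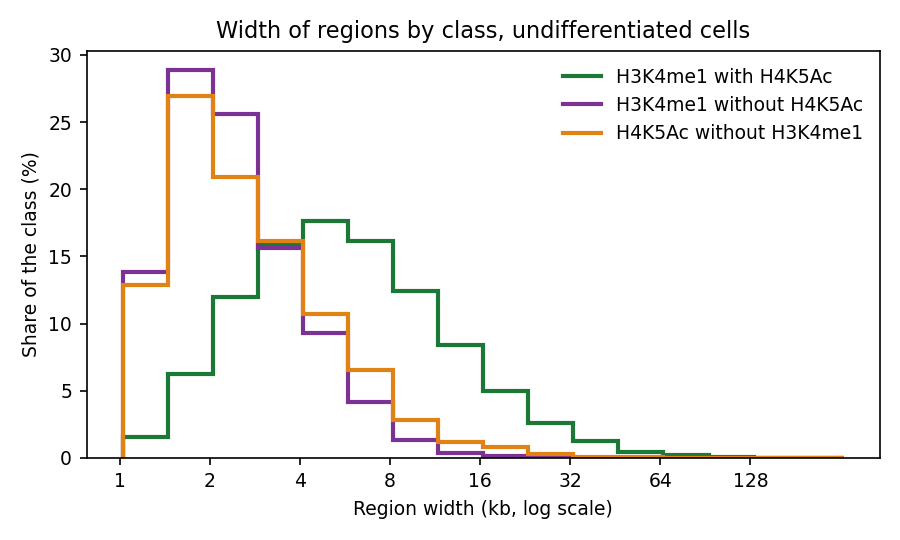
Share of each class of regions (vertical axis, percent) by region width (horizontal axis, kb, log scale), undifferentiated cells. The curve of the acetylated H3K4me1 regions, with a median of 5401 bp, lies to the right of the curves of H3K4me1 without H4K5Ac and H4K5Ac without H3K4me1, which lie close together.

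The authors' deposited score of each region has no stated definition, so it was used only as a rank within its own list. The median percentile was 60.9 for acetylated and 19.7 for unacetylated H3K4me1 regions, and it was 17.8 for H4K5Ac regions without H3K4me1. When the H3K4me1 list was cut into 5 equal score classes, 61.5% of the lowest class was unacetylated. The share then fell through 36.5%, 17.0% and 5.97% to 0.978% in the highest class, where 100 regions were left. H4K5Ac behaved alike: 39.9% of its lowest score class lacked H3K4me1, against 0.721% of its highest. Few regions sat close to the boundary of the rule. Only 16 H3K4me1 regions overlapped H4K5Ac by 200 bp or less, and only 19 missed it by 200 bp or less. The median gap from an unacetylated region to the nearest H4K5Ac region was 10442.5 bp, and 48.6% of them had one within 10000 bp. Inside the acetylated regions H4K5Ac covered a median of 93.6% of the bases, and 13296 regions (34.4%) were covered in full.

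Acetylated H3K4me1 regions lay at promoters more often than unacetylated ones. Of all H3K4me1 regions, 11.3% were centred within 1 kb of a TSS of a protein-coding gene, 13.4% (13.1 to 13.8) of the acetylated and 4.70% (4.33 to 5.08) of the unacetylated ones. The difference was 8.73 points (8.22 to 9.23). Unacetylated regions lay between genes instead, in 51.7% against 43.4% of cases, while the intron shares of 41.3% and 40.7% differed by less than their interval (-1.56 to 0.43 points). Of all H4K5Ac regions 16.6% were centred on a promoter, 18.4% of those with and 5.97% of those without H3K4me1. Among regions narrower than 2 kb the promoter shares of acetylated H3K4me1 regions and of H4K5Ac regions without H3K4me1 were 7.22% and 6.40%, a difference of 0.82 points (-0.56 to 2.18). H4K5Ac regions without H3K4me1 had the largest share far from a TSS: 27.2% (26.1 to 28.4) were over 100 kb from any TSS, against 16.7% of acetylated and 16.9% of unacetylated H3K4me1 regions. Between genes lay 48.4% of them, 3.26 points (1.73 to 4.79) less than of unacetylated H3K4me1 regions. They were also the least GC-rich, with a median GC content of 41.9% against 44.6% in both H3K4me1 classes. CpG-rich regions, with a GC content over 50% and an observed-to-expected CpG ratio over 0.6, were 4.99% of acetylated regions, 1.10% of unacetylated regions and 1.69% of H4K5Ac regions without H3K4me1.

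RUNX2 was found mainly where both marks were present. Wider regions hold more peaks, so the comparison was made in the central 1001 bp, which every region holds. Of all H3K4me1 regions 4.8% had a RUNX2 peak there, 2320 or 6.00% (5.77 to 6.24) of the acetylated and 132 or 1.06% (0.887 to 1.26) of the unacetylated ones. The difference was 4.94 points (4.64 to 5.23). Among H4K5Ac regions, of which 6.44% had a central RUNX2 peak, the share was 7.40% with and 0.820% (0.609 to 1.08) without H3K4me1. The unacetylated class and the class without H3K4me1 differed by only 0.24 points (-0.07 to 0.52). By length, there were 39.2 RUNX2 peaks per Mb of acetylated regions, 5.55 per Mb of unacetylated regions and 4.98 per Mb of H4K5Ac without H3K4me1. Outside the mitochondrial chromosome the last value was 4.49 per Mb.

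C/EBPβ was also more frequent under both marks, with a ratio of shares of 2.18 against 5.66 for RUNX2. It had a central peak in 5.95% of all H3K4me1 regions, in 6.85% (6.60 to 7.11) of the acetylated and 3.15% (2.85 to 3.47) of the unacetylated ones, a difference of 3.70 points (3.30 to 4.09). It had a central peak in 6.72% of all H4K5Ac regions and in 1.82% of those without H3K4me1. Its share in unacetylated H3K4me1 regions was above that in H4K5Ac regions without H3K4me1, by 1.33 points (0.86 to 1.77). Over 5 kb from a TSS RUNX2 was above there too, by 0.35 points (0.03 to 0.64), and whether the factors differ in this was not tested. Both factors had a peak in the central window of 1.81% of acetylated regions, 0.120% of unacetylated regions and 0.115% of H4K5Ac regions without H3K4me1. Over whole regions the shares were 11.9%, 0.217% and 0.197%.

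Because unacetylated regions had low H3K4me1 scores, the shares were set side by side within each score class. In the lowest class RUNX2 was central in 1.45% of acetylated and 0.716% of unacetylated regions, and the pair of shares was 3.14% and 1.37% in the next. It was 5.56% and 1.44% in the middle class and 7.16% and 1.80% in the one above. In the highest class 8.87% of 10125 acetylated and 0 of 100 unacetylated regions had a central RUNX2 peak, and the interval of the latter reached 3.62%. The RUNX2 shares thus rose through all 5 classes in acetylated regions and stayed at or under 1.80% in unacetylated ones. The C/EBPβ shares differed beyond counting error in 4 of the 5 classes, by 1.58 points (0.90 to 2.30) in the lowest, 1.47 in the next, 3.45 (1.50 to 4.86) in the one above the middle and 9.07 in the highest. In the middle class, with 6.11% and 5.13%, the difference of 0.98 points (-0.26 to 2.06) did not exceed it. The RUNX2 difference in the middle class was 4.12 points (3.29 to 4.81). Among regions narrower than 2 kb the RUNX2 shares were 1.47% and 0.655%, a difference of 0.81 points, and the C/EBPβ shares were 4.68% and 2.50%.

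**Figure D2:**
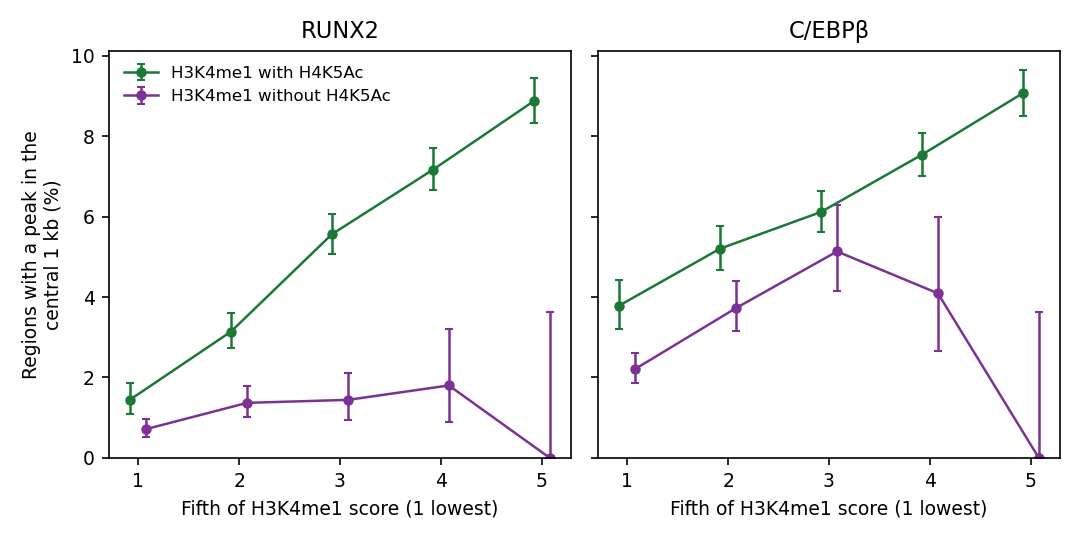
Share of H3K4me1 regions with a RUNX2 (left) or C/EBPβ (right) peak in the central 1001 bp (vertical axis, percent), by score class of the H3K4me1 list (horizontal axis, 1 lowest to 5 highest), with bars for exact 95% intervals. RUNX2 climbs from 1.45% to 8.87% in acetylated regions and stays at or under 1.80% in unacetylated ones, while the C/EBPβ curves come closest in the middle class, at 6.11% and 5.13%.

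The same pattern was seen from the side of the peaks. Of 12674 RUNX2 peaks, 11990 (94.6%) had their centre where both marks overlapped and 191 (1.51%) in unacetylated H3K4me1 regions. A further 102 (0.805%) were in H4K5Ac regions without H3K4me1 and 146 (1.15%) in neither mark. These places covered 10.3%, 1.35%, 0.801% and 83.7% of the gap-free genome, in this order. Per Mb they held 45.4, 5.55, 4.98 and 0.0682 RUNX2 peak centres. Of 15622 C/EBPβ peaks, 13670 (87.5%) had their centre under both marks and 635 (4.06%) in unacetylated H3K4me1 regions, while 787 (5.04%) lay in neither mark. In the same order of places as for RUNX2, there were 51.8, 18.4, 7.37 and 0.368 C/EBPβ peak centres per Mb. The difference between the factors in unacetylated regions was -2.56 points (-2.93 to -2.18, RUNX2 minus C/EBPβ). Unacetylated regions held 3.32 C/EBPβ peak centres for each RUNX2 peak (2.82 to 3.93), against 1.14 where both marks overlapped. The tilt to C/EBPβ was not particular to them: the ratio was 5.39 outside both marks and 5.57 in stretches of acetylated regions that H4K5Ac did not reach. The overlap of the factors also differed by place. A C/EBPβ peak overlapped 32.3% of RUNX2 peaks under both marks, 10.5% (20 of 191) in unacetylated H3K4me1 regions and 8.82% (9 of 102) in H4K5Ac regions without H3K4me1. It overlapped 23.3% (9.93 to 42.3, 7 of 30) in H3K4me1-alone stretches of acetylated regions and 12.6% on H4K5Ac stretches next to H3K4me1.

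A further 215 RUNX2 peaks lay on stretches of H4K5Ac that extended beyond an adjoining H3K4me1 region. Of these 85.1% (79.6 to 89.6) were at promoters, with a median distance to the TSS of 162 bp, whereas only 5.76% of the RUNX2 peaks in unacetylated regions were. The peak in the 1190002N15Rik promoter printed above is one of them. The 212 C/EBPβ peaks on such stretches were at promoters in 58.5% of cases.

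RUNX2 and C/EBPβ peaks in unacetylated H3K4me1 regions carried the factor's own motif more often than peaks under both marks. TGTGGT was searched on both strands in each 201 bp peak, and the windows of the same length 1 kb to each side gave the background. It was in 80.6% (74.3 to 86.0, 154 of 191) of RUNX2 peaks in unacetylated H3K4me1 regions and in 51.3% (50.4 to 52.2) of those under both marks. The flanking windows held it in 13.9% and 15.0% of cases. The difference was 29.3 points (23.1 to 34.4), and it was 20.6 points (14.1 to 25.7) when peaks within 1 kb of a TSS were left out, with shares of 81.1% and 60.5%. RUNX2 peaks outside both marks had the motif in 75.3% of cases, and those on promoter-side H4K5Ac stretches in 18.1% (13.2 to 24.0, flanks 7.67%). Over 1 kb from a TSS the share on these stretches was 46.9%, which differed from the 60.5% under both marks by -13.7 points (-29.7 to 3.04). In H4K5Ac regions without H3K4me1 the share was 57.8% (47.7 to 67.6). Of these 102 peaks 10 lie in 1 region of the mitochondrial chromosome, where 1 held the motif, and the share among the other 92 was 63.0%.

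C/EBPβ peaks also differed in their motif, TTGCNNAA. It was in 58.4% (54.5 to 62.3) of C/EBPβ peaks in unacetylated H3K4me1 regions and in 38.1% (37.3 to 38.9) under both marks, with flanking windows at 8.19% and 8.63%. The difference was 20.4 points (16.4 to 24.2) over all peaks and 19.1 points over peaks more than 1 kb from a TSS. In the bare stretches of H3K4me1 that stick out of acetylated regions it was in 69.5% (116 of 167), and outside both marks in 72.7%. On H4K5Ac stretches next to H3K4me1 it was in 47.6%, above the share under both marks by 9.57 points (2.90 to 16.3). Over 1 kb from a TSS it was in 60.2% there, against 38.7% under both marks and 57.8% in unacetylated H3K4me1 regions. In H4K5Ac regions without H3K4me1 it was in 39.1%, which differed from the share under both marks by 1.00 point (-6.46 to 9.01). The AP-1 motif TGANTCA, bound by FOS and JUN dimers, was in 21.6% (18.4 to 25.0) of C/EBPβ peaks in unacetylated H3K4me1 regions, 15.3% under both marks and 3.97% in H4K5Ac regions without H3K4me1. Its flanking windows stood at 5.75%, 6.28% and 5.63%. None of the 3 motifs contains another, and a match is a description of the letters, not a bound site.

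**Figure D3:**
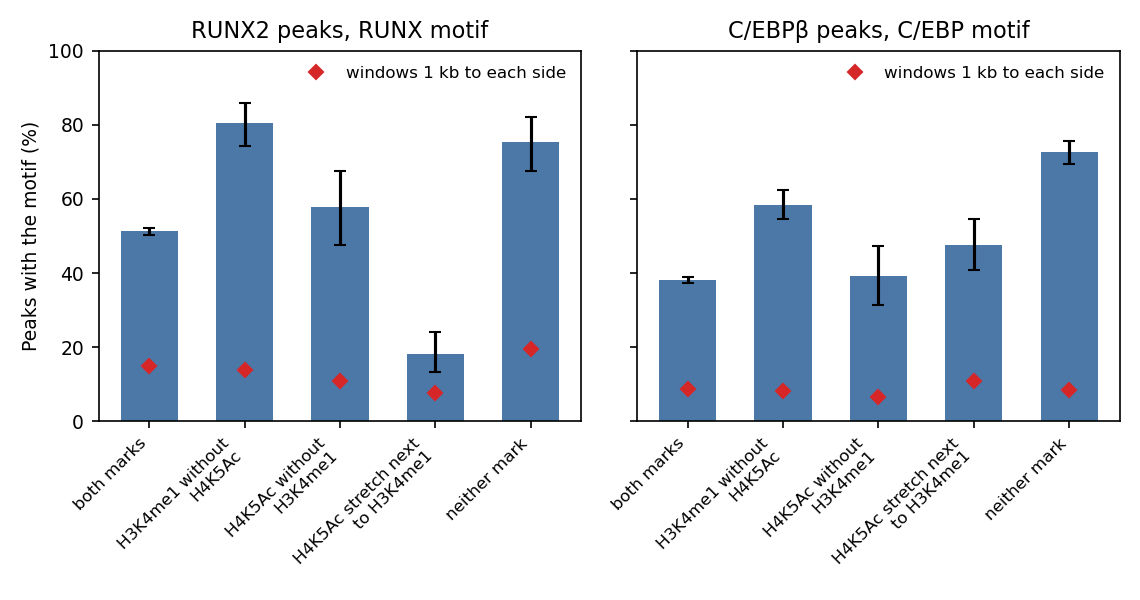
Share of RUNX2 peaks with TGTGGT (left) and of C/EBPβ peaks with TTGCNNAA (right) by the marks at the peak centre (vertical axis, percent; lines are exact 95% intervals), with diamonds for windows 1 kb to each side. Peaks in unacetylated H3K4me1 regions stand at 80.6% and 58.4%, above the 51.3% and 38.1% of peaks under both marks.

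The other marks of the same cells also differed between the classes. They were scored by any overlap with the whole region, and the shares below are not matched for width. Acetylated H3K4me1 regions were the widest class, so they had more room to overlap. H3K9Ac, an acetylation of active promoters and enhancers, overlapped 34.8% of acetylated H3K4me1 regions and 119 (0.955%) of the unacetylated ones. In the lowest H3K4me1 score class the shares were 12.9% and 0.732%. H3K4me3, the mark of active promoters, overlapped 18.5% of acetylated and 21 (0.169%) of unacetylated regions. Even unacetylated regions centred on a promoter had H3K9Ac in 8.21% of cases, against 85.2% of acetylated promoter regions. H4K5Ac regions without H3K4me1 had H3K9Ac in 0.903% of those over 5 kb from a TSS. Of their 364 promoter regions 42.9% had H3K9Ac. H3K36me3, which covers the bodies of transcribed genes, overlapped 56.5% (54.6 to 58.4) of their intronic members. This was close to the 60.0% of intronic acetylated regions and above the 34.6% of intronic unacetylated H3K4me1 regions.

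By genes, the acetylated class reached most of the annotation. Each region was given to the nearest TSS within 100 kb. Of 22239 genes 57.5% had at least 1 acetylated H3K4me1 region, 27.4% had an unacetylated one and 13.7% an H4K5Ac region without H3K4me1. Unacetylated regions were mostly additions to acetylated ones: 1304 genes (5.86%) had an unacetylated but no acetylated region, and 456 (2.05%) had only H4K5Ac regions without H3K4me1. At the promoter itself, within 1 kb of a TSS, 53.5% of genes had both marks, 3.63% H3K4me1 only, 2.01% H4K5Ac only and 40.9% neither. H3K4me3 was at 64.5% of promoters with both marks, at 15.8% of those with H4K5Ac only and at 2.73% of those with H3K4me1 only.

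Lists of genes of bone cells and of other tissues were described by how many members had a region of each class. Acetylated regions were near 20 of 24 genes of the osteoblast matrix and of mineralisation, 21 of 24 osteoblast transcription factors and 27 of 28 genes of the Wnt, BMP and TGFβ pathways, whose ligands drive bone formation. They were near 21 of 22 cell cycle genes and 9 of 10 housekeeping genes, against 57.5% of all genes. Unacetylated regions were near 7, 10 and 16 members of the 3 bone lists, and near 4 of 22 cell cycle genes and 1 of 10 housekeeping genes, against 27.4% of all genes. Unacetylated regions were 17.0%, 15.4% and 20.9% of the H3K4me1 regions of the 3 bone lists, in this order, against 24.3% over all genes. In the Wnt and BMP list the ligand gene Bmp2 had 4 H3K4me1 regions, all unacetylated, and no region of another class. Wnt5a, a non-canonical ligand, had 7 unacetylated beside 4 acetylated regions, and Ctnnb1, the gene of β-catenin, had 5 beside 6. These 3 genes were picked after their values were seen.

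Marker lists of other lineages ranged widely. The 12 muscle markers had 15 H3K4me1 regions in all, of which 8 (53.3%) were unacetylated, against 24.3% over all genes. At the promoter 2 of the 12 had both marks (Des and Myh3), 2 had H4K5Ac only (Tnnt3 and Mb), 2 had H3K4me1 only and 6 had neither, Myod1 and Myf6 among them. The 2 with H3K4me1 only were Myf5 and Myog, regulators of muscle fate, and neither had H3K4me3 or H3K9Ac there. These genes were named after their values were seen. Of 10 keratinocyte markers 6 had an acetylated region and none an unacetylated one. The counts for an acetylated and an unacetylated region were 9 and 4 of 12 for chondrocyte markers, 8 and 5 of 12 for adipocyte markers and 5 and 4 of 11 for haematopoietic markers. They were 7 and 6 of 9 for endothelial markers and 5 and 2 of 11 for neural markers. Of the vitamin D pathway genes 8 and 3 of 10 had them, and of the enzymes and readers of H3K4 methylation and H4 acetylation 17 and 8 of 17. Lists of 9 to 28 genes have wide intervals, and no test of a list was made.

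**Figure D4:**
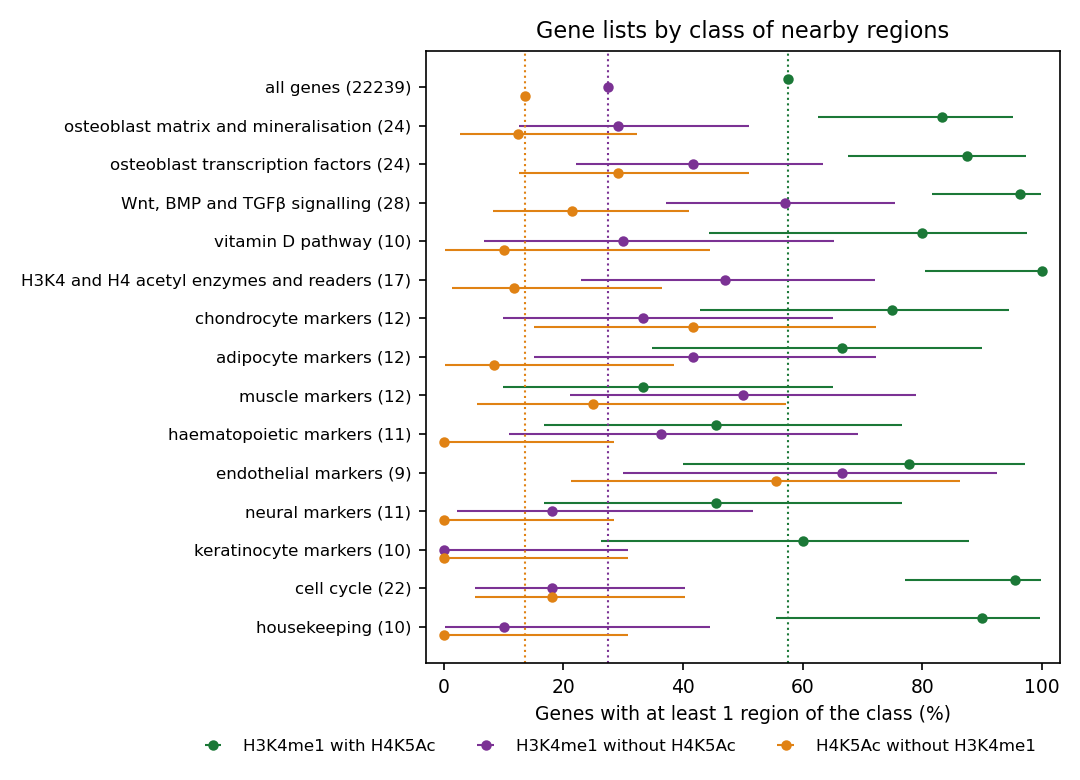
Share of genes with at least 1 region of each class (horizontal axis, percent) for all 22239 genes and for each list (vertical axis, number of genes in brackets), with exact 95% intervals and dotted lines at the shares of all genes. The bone, enzyme and cell cycle lists lie right of the line for acetylated regions, at 57.5%, with intervals that do not reach it. The housekeeping, vitamin D, chondrocyte, adipocyte, endothelial and keratinocyte lists also lie right of it, with intervals that span it. Muscle, haematopoietic and neural markers lie left of it with intervals that span it.

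Of 24 named bone genes 23 had acetylated regions and both marks at the promoter. An acetylated region was near 57.5% of all 22239 genes, and 53.5% of them had both marks at the promoter. Bglap, the osteocalcin gene, had no region of any class. The RUNX2 and C/EBPβ peaks of these genes lay in acetylated regions, with the exception of 1 of the 2 C/EBPβ peaks near Phex, which lay in none of the 3 classes. Over all peaks, 94.6% of RUNX2 and 87.5% of C/EBPβ peaks had their centre under both marks. None of the 19 unacetylated regions or the 7 H4K5Ac regions without H3K4me1 near these genes held a factor peak. Over all regions of these 2 classes 93.7% and 96.3% held none, so the counts near bone genes are close to the general share. Col1a2, which encodes a chain of type I collagen, had 2 acetylated regions of 68887 and 70188 bp with 12 RUNX2 and 15 C/EBPβ peaks assigned to the gene. Spp1, the osteopontin gene, also had 2, with 7 RUNX2 and 8 C/EBPβ peaks assigned to the gene. Sp7, the osteoblast factor downstream of Runx2, had 1 acetylated region of 36943 bp, and Col1a1 had 3.

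Tnfsf11, which encodes the osteoclast-inducing ligand RANKL, had 8 unacetylated H3K4me1 regions, the most of these 24 genes, beside 9 acetylated ones. The unacetylated ones were 1168 to 2642 bp wide and lay 25042 to 89728 bp from the TSS. Of these, 3 lay between acetylated regions upstream of the gene, 4 lay downstream of the TSS beyond all acetylated ones, 1 of them in an intron, and 1 lay farthest upstream. All 5 RUNX2 peaks and both C/EBPβ peaks lay in acetylated regions. The acetylated region centred 76916 bp from the TSS, 6488 bp wide, held 4 of the RUNX2 peaks and was the only one of the 17 with H3K9Ac and H3K4me3. The next 3 acetylated regions toward the gene held no factor peak.

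Msx2, a homeobox gene of skull and limb development, had 2 acetylated and 3 unacetylated regions and no factor peak. Ibsp, the bone sialoprotein gene, had 4 and 2. Its unacetylated regions at chr5:104692735-104696308 and chr5:104705223-104707630 lie upstream between acetylated ones. Runx2 had 5 acetylated regions, none unacetylated, and 4 H4K5Ac regions without H3K4me1. The last 4 lie between 45002575 and 45050501 on chromosome 17, upstream of Runx2 in introns of Supt3h, and none held a factor peak. Alpl, the alkaline phosphatase gene, had all 6 RUNX2 peaks assigned to it in acetylated regions, of which it had 4, and 1 H4K5Ac region without H3K4me1.

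The genes with most regions of each class were taken next. Counts were by nearest TSS and were not adjusted for gene length, and many of these genes are long. The part of length in the ranking was not tested. Most acetylated regions were near Zbtb20 (40), Bach2 (30), Glis3 (28), Smyd3 (26), Kalrn (24) and Col24a1 (23). Zbtb20, Bach2 and Glis3 encode zinc finger or leucine zipper transcription factors. Most unacetylated regions were near Pde4d, a cyclic AMP phosphodiesterase gene, with 18 beside 10 acetylated ones. Ank3, Jarid2 and Kif6 followed with 12 each, Kcnma1 with 11 and Col6a6 with 10. Jarid2, which encodes a partner of the Polycomb complex PRC2, had only 3 acetylated regions and Col6a6 only 2. Most H4K5Ac regions without H3K4me1 were near Etl4 (16), Plxdc2 (14), Arhgap15 and Gtdc1 (13 each), Snd1 (12) and Meis2 (11). All of these but Snd1 lie on chromosome 2, where 19.4% of H4K5Ac regions lacked H3K4me1, against 10.7% to 20.9% over the autosomes. Plxdc2 had H4K5Ac without H3K4me1 also at its promoter.

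RUNX2 peaks in the minority classes were scattered. No gene had more than 2 in unacetylated regions, and Oas3 and Opn5 had 2 each. The Oas3 region (chr5:121224503-121231746) and the Opn5 region (chr17:42716570-42719307) held no C/EBPβ peak and no H3K9Ac. In H4K5Ac regions without H3K4me1, mt-Nd1 of the mitochondrial chromosome had 7 peaks, while BC002059 and Gm15319 had 2 each. Of the 10 peaks in the mitochondrial region only 1 held TGTGGT, and whether they are bound sites was not tested.

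The acetylated region with the highest H3K4me1 score covered 160381 bp of Tcf7l2, a transcription factor of the Wnt pathway (chr19:55819028-55979408), with 9 RUNX2 and 16 C/EBPβ peaks. The acetylated region with most RUNX2 peaks, 13, lay 44427 bp from the Frmd8 TSS (chr19:5784469-5854041). The highest-scoring unacetylated region covered 30772 bp of Wt1, the Wilms tumour factor gene (chr2:104990908-105021679). It held 3 C/EBPβ peaks and no RUNX2 peak, although it ranked at percentile 97.0 of all H3K4me1 regions. The highest-scoring H4K5Ac region without H3K4me1, 48312 bp wide, lay 798537 bp from the nearest TSS, that of Lcorl (chr5:47023236-47071547), and held no peak of either factor and no other mark examined.

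The classes were followed to differentiated cells by any overlap of the whole region with the lists of that state, again without matching for width. Of acetylated H3K4me1 regions 80.8% overlapped H4K5Ac and 95.3% overlapped H3K4me1 there. Of unacetylated regions 1187 or 9.53% (9.02 to 10.1) overlapped H4K5Ac of differentiated cells, 60.2% (59.3 to 61.1) overlapped H3K4me1 and 39.4% overlapped neither. The share with later H4K5Ac was 6.97% in the lowest H3K4me1 score class, 10.9% in the next, 13.0% in the middle, 16.2% in the one above and 17.0% in the highest. Acetylated regions of the lowest class overlapped it in 54.6%. Both upstream regions of Ibsp were among those with later H4K5Ac, and the Wt1 region was not, although H3K4me1 was called there in both states. None of the 8 unacetylated Tnfsf11 regions overlapped it. Of the H4K5Ac regions without H3K4me1, 26.5% (25.4 to 27.6) overlapped H4K5Ac of differentiated cells, 45.7% (44.5 to 47.0) overlapped H3K4me1 and 48.8% neither. The differentiated lists held 33439 H4K5Ac and 54403 H3K4me1 regions, so list length differed between states, and its part in these shares was not tested.

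Regions that held a factor peak before differentiation were found again more often. Of the 189 unacetylated regions with RUNX2, 172 (91.0%, 86.0 to 94.7) overlapped H3K4me1 of differentiated cells and 36 (19.05%, 13.7 to 25.4) overlapped H4K5Ac. For the 618 with C/EBPβ the shares were 73.5% and 14.4%. For the 11678 with neither factor they were 59.1% and 9.17%. Score and width differ between these groups of regions, and their part in the difference was not tested. For H4K5Ac regions without H3K4me1, the 89 with RUNX2 overlapped later H4K5Ac in 40.4% (30.2 to 51.4) and the 5871 with neither factor in 26.1%.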

How the data were processed

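Peak lists from chromatin immunoprecipitation sequencing were used for 7 antibodies in undifferentiated cells and for H4K5Ac and H3K4me1 in differentiated cells. The submitters' processing notes name Bowtie, HOMER and the mm9 build. Their versions and the peak thresholds were not given in the sources used here. By its file name, each deposited list is the overlap of replicates. The only value in the deposited lists besides coordinates is a score by the authors, 0 for every factor peak. For 1 antibody the protocol text has H3K5Ac, and the antibody label, H4K5Ac, was followed.

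Intervals were overlapped by at least 1 bp with Python 3.11.15, NumPy 2.4.6, SciPy 1.17.1 and pysam 0.24.0, on the NCBIM37 assembly with GENCODE annotation of 22239 genes and 70022 TSSs. Exact and Newcombe 95% intervals were computed for shares, and the steps were tested on simulated data. The rules were 24 bone genes, the 6 genes with most regions per class, the 3 with most RUNX2 peaks in each minority class, the regions with highest score or most RUNX2 peaks, and, for sequences, the first RUNX2 peak with the motif at a bone gene or, failing that, by gene name. The Oas3, C/EBPβ and promoter sequences and the motif comparison by place were added after the values were seen. Members and lists were chosen with earlier results of these data known. Alternatives varied the overlap, score, width, promoter size, gene assignment, merging and chromosomes.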

Additional observations from a re-analysis of the deposited data

How the results depend on the processing

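Of 72 alternatives named at the start, 36 left the value within its interval and 36 moved it, and of 61 added after the values were seen 35 and 24 did so and 2 turned the direction. A turn was counted only where the main interval excluded 0. The changes of sign of the RUNX2 difference given below, whose main interval holds 0, are counted as moved. The 26 recomputed promoter and factor differences between acetylated and unacetylated H3K4me1 regions kept their sign. The promoter difference of acetylated regions minus H4K5Ac without H3K4me1, 7.46 points, was -3.91 when only H3K4me1 regions above their median score counted, since H4K5Ac regions with weaker H3K4me1 then count as without it. That of unacetylated regions minus H4K5Ac without H3K4me1, -1.27 points, was 0.10 (-1.002 to 1.17) with promoters of 5 kb. In H4K5Ac without H3K4me1 the promoter, RUNX2 and C/EBPβ shares of 5.97%, 0.820% and 1.82% were 15.9%, 3.44% and 4.51% under the former setting. The RUNX2 difference of unacetylated minus H4K5Ac without H3K4me1, 0.24 points and within counting error, was -1.95 there and -0.27 in regions under 2 kb. No paired analysis was possible because each antibody had 1 merged list with no replicate columns. The share of H3K4me1 regions with H4K5Ac was 70.0% when most of the region had to overlap, 48.7% against H4K5Ac regions above their median score and 94.7% within H3K4me1 regions above theirs. The share of H4K5Ac without H3K4me1 was 19.2%, 2.797% and 42.96% under the same settings. The promoter difference of 8.73 points was 7.97 with higher-scored H4K5Ac, 15.2 with promoters of 5 kb and 3.48 in regions under 2 kb. The RUNX2 difference of 4.94 points was 5.25 with the stricter overlap, 5.26 and 6.16 with the higher-scored H4K5Ac and H3K4me1, 0.81 in regions under 2 kb, 21.2 over whole regions and 4.34 over 5 kb from a TSS. The C/EBPβ difference of 3.70 points was 4.35, 3.30 and 3.28 with the first 3 of these, 2.17 under 2 kb and 19.96 over whole regions. The width ratio of 2.48 was 2.39 over 5 kb from a TSS. Genes with an acetylated region were 54.0% with a limit of 20 kb and 66.9% by gene body plus 10 kb. Those with an unacetylated region were 18.97% and 26.1%. Those with at least 1 H4K5Ac region without H3K4me1 were 8.69% at 20 kb. The TGTGGT difference was 20.6 points away from promoters, an alternative added after the data were seen. Later H4K5Ac of unacetylated regions was 2.99% against regions above the median score of that list and 7.95% with the stricter overlap, both added likewise. The cause of these shifts was not tested, apart from wider windows holding more peaks. Unknown read depth limits every statement that a mark is absent.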

Other observations

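H4K5Ac regions without H3K4me1 had a different place on chromosome X, which was looked at after the values by chromosome were seen. On X 48 of 135 such regions (35.6%, 27.5 to 44.2) were centred on a promoter, against 311 of 5959 (5.22%) on the autosomes, where single chromosomes ranged from 1.87% to 16.02%. The difference was 30.3 points (22.7 to 38.7). Of the 48 regions 40 overlapped H3K9Ac, 9 overlapped H3K4me3 and 1 held a RUNX2 peak, and 41 overlapped H4K5Ac again in differentiated cells. They included the promoters of Ddx3x, an RNA helicase gene, Uba1, which encodes the ubiquitin-activating enzyme, and the deacetylase gene Hdac6, all named after their values were seen. H4K5Ac regions with H3K4me1 were also at promoters more often on X, 30.9% against 18.1%. By genes, 60 of 927 on X (6.47%, 4.98 to 8.25) had H4K5Ac but no H3K4me1 at the promoter, against 1.78% of 21282 autosomal genes, and 29.2% against 54.6% had both marks. H3K4me1 regions were sparse on X, at 6.47 per Mb against 14.8 to 27.4 per Mb on the autosomes. H4K5Ac regions were few on X as well, 838 against 1421 to 3490 on single autosomes. Of those on X 16.1% lacked H3K4me1, within the autosomal range of 10.7% to 20.9%. The part of this scarcity in the promoter shares was not tested.

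The unacetylated H3K4me1 region with the second-highest score, near Gm10717 (chr9:3015049-3038754), overlapped H3K9Ac, H3K4me3 and H3K36me3 and, in differentiated cells, H4K5Ac. The H4K5Ac region on the mitochondrial chromosome spans positions 1 to 4737 and also overlapped H3K9Ac and H3K36me3. Whether these calls reflect histone marks on that chromosome was not tested.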
